A study of Mus musculus with 6 samples.

Results

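The 10 genes described here encode the constant regions of mouse antibody chains. They were taken by name from a table of 55401 gene identifiers, and each name matched 1 identifier. Of the 7 heavy chain genes, Ighm encodes the constant region of IgM, Ighd that of IgD and Igha that of IgA, and Ighg1, Ighg2b, Ighg2c and Ighg3 encode those of the IgG subclasses. The 3 light chain genes are Igkc, the constant region of the kappa chain, and Iglc2 and Iglc3, constant regions of lambda chains. All 10 genes passed the filter on low counts.

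Polyadenylated RNA of the lacrimal gland, which makes most of the tear fluid, was sequenced in 3 NOD/Ltj and 3 ICR samples, with 1 library each. NOD/Ltj mice are inbred and develop autoimmune inflammation of exocrine glands without treatment. ICR mice are outbred and carry the control label. Treatment, transgene, age and sex are not given in the labels for either strain, nor is the number of animals behind a sample, so the tests cover only the variation among these 6 samples, which may be partly technical.

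A B cell displays its antibody on the membrane, and a plasma cell secretes it. Naive B cells make IgM and IgD from 1 primary transcript by alternative splicing. After activation, class switch recombination joins the same variable region to a downstream constant gene, such as a gamma gene or the alpha gene. Exocrine glands, the lacrimal gland among them, normally hold plasma cells that secrete IgA joined by the J chain, and the polymeric immunoglobulin receptor carries this IgA across the epithelium into the tears. Each B cell uses either the kappa or a lambda light chain, and in mice kappa is used by most cells.

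GENCODE release M21, on build GRCm38, places the heavy chain genes side by side on the minus strand of chromosome 12, in the order Ighm, Ighd, Ighg3, Ighg1, Ighg2b, Ighg2c and Igha as they are transcribed. Ighm lies at chr12:113418558-113422730 and Igha at chr12:113254830-113260236. Igkc lies at chr6:70726435-70726966 on the plus strand, Iglc2 at chr16:19198396-19200351 and Iglc3 at chr16:19065230-19065681 on the minus strand. The build of the counts is not given in the sources used here, so these positions belong to the annotation that supplied the names. Mouse strains carry either Ighg2c or Ighg2a at the same place, and this annotation holds Ighg2c. Which of them the ICR and NOD/Ltj samples carry was not tested, and a count of Ighg2c covers the reads that matched it.

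The IgG subclasses differ most visibly in the hinge, the flexible stretch between the antigen-binding arm and the stem. The hinge exons are shown in capitals, with 15 bases of the neighbouring exons in lower case, on the minus strand of chromosome 12. They run over chr12:113329844-113329882 in Ighg1, chr12:113307261-113307326 in Ighg2b, chr12:113288263-113288325 in Ighg2c and chr12:113360529-113360576 in Ighg3.
Ighg1: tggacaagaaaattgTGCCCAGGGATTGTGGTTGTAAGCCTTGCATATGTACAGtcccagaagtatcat
Ighg2b: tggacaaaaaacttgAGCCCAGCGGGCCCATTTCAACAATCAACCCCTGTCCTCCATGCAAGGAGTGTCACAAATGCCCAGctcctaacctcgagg
Ighg2c: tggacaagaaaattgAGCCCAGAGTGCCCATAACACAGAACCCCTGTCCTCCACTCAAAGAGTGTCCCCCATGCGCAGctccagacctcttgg
Ighg3: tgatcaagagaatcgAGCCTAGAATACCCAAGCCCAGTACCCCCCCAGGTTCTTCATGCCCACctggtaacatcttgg
These exons measure 39 bases in Ighg1, 66 in Ighg2b, 63 in Ighg2c and 48 in Ighg3.

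Outside the hinge some members are close enough that short stretches could be credited to the wrong gene. The coding sequences of Iglc2 and Iglc3 were 96.2% identical and those of Ighg2b and Ighg2c 85.7%, while the other pairs of IgG genes were between 74.1 and 76.3% identical. The stretches below are the 150 coding bases, 1 read length, in which each pair differs least, with the differing bases in capitals.
Iglc2: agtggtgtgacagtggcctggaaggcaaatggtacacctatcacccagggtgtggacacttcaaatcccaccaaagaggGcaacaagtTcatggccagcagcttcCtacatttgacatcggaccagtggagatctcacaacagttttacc
Iglc3: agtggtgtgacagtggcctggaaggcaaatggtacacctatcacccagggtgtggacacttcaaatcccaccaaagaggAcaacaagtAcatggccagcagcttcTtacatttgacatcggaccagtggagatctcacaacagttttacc
Ighg2b: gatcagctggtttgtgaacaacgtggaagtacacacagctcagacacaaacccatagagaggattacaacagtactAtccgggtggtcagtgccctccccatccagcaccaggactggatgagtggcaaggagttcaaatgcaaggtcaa
Ighg2c: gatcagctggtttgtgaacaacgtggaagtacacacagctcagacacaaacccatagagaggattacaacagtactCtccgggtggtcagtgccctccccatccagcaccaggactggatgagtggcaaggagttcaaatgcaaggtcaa
They lie at chr16:19198599-19198748 in Iglc2, chr16:19065428-19065577 in Iglc3, chr12:113306874-113307023 in Ighg2b and chr12:113287874-113288023 in Ighg2c, all on the minus strand. The lambda stretches differ at 3 bases and the gamma stretches at 1 base. No stretch of 150 bases occurred unchanged in the annotated transcripts of more than 1 of the 10 genes, Iglc1 or Ighe. At 50 bases, 10.7% of the stretches of Iglc3 and 5.49% of those of Ighg2c had an exact copy, in Iglc2 for Iglc3 and in Ighg2b for Ighg2c. Values of these 4 genes are therefore uncertain where reads were short, clipped or carried strain differences.

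The libraries held between 58426580 and 76554340 estimated counts, and the 10 genes took 0.321, 0.466 and 0.331% of them in NOD 1, 2 and 3, against 0.0488, 0.235 and 0.0878% in ICR 1, 2 and 3. Levels are CPM, the usual unit for counts relative to the scaled size of the library. ICR 2 stood apart from the other ICR libraries in most antibody genes: it was 5.91 to 54.5 times ICR 1 in the IgG genes, Igha, Igkc and Iglc2. Of 8 salivary gland markers, 7 were in the table, and their summed level was 53.4, 2523 and 80.9 CPM in NOD 1, 2 and 3, against 638, 1369 and 14035 CPM in ICR 1, 2 and 3. Salivary glands hold antibody-secreting cells too, and the part of such tissue in the values below was not tested. Of 12 acinar and ductal gland genes, 11 were in the table and none was at 0 in any library. Their summed level was 895, 853 and 816 CPM in NOD 1, 2 and 3, against 1206, 1069 and 1092 CPM in ICR 1, 2 and 3, without overlap. None of the 11 was called by edgeR, and 0 had an unadjusted p under 0.05, against 2420 of all 18537 genes tested. Their median log2 fold change was −0.39, and the part of this difference in the values below was not tested.

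Transcripts of IgM and IgD rose in NOD/Ltj, together with Iglc3, while IgA, kappa and the IgG subclasses did not pass the test. At an adjusted p under 0.05 in edgeR's quasi-likelihood test, 3 of the 10 genes were higher and 0 lower, against 1.88% of all 18537 genes tested that were higher and 0.361% that were lower. DESeq2 called 5 members higher (4.84% of all genes) and limma-voom 2 (0.664%). All 10 fold changes were positive, with a median log2 fold change of 2.66, against −0.03 over all genes tested. In 7 of the 10 every NOD/Ltj library lay above every ICR library, which 11.2% of all genes tested did, and 0 of the 10 lay the other way round, which 8.89% did. In bulk tissue, more cells of a type and more RNA per cell cannot be told apart, so these are differences in transcript level per gland sample.

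**Figure D1:**
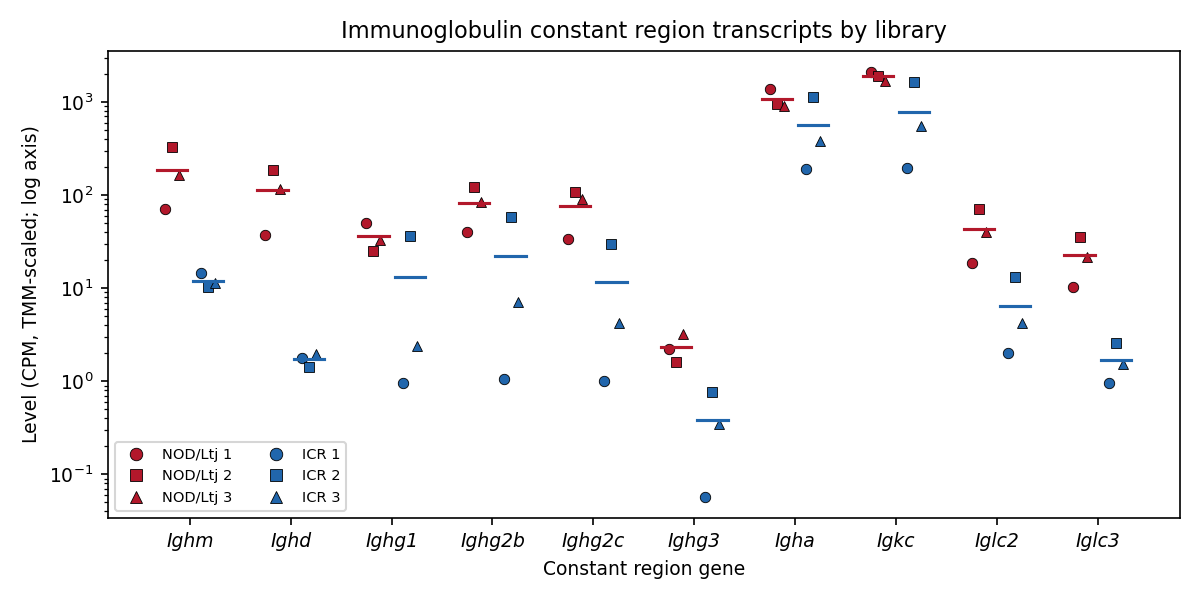
Level of each constant region gene in every library (CPM on a log axis), with NOD/Ltj in red on the left of each gene and ICR in blue on the right; symbols mark the library number and bars the group mean. Ighm and Ighd are tight in ICR and far higher in NOD/Ltj, whereas for Igha, Igkc, Ighg1, Ighg2b and Ighg2c ICR 2 lies near or inside the NOD/Ltj values and ICR 1 far below.

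Ighd showed the largest difference of the 10 genes. It stood at 37.5, 187 and 116 CPM in NOD 1, 2 and 3, against 1.76, 1.44 and 1.98 CPM in ICR 1, 2 and 3. The lowest NOD/Ltj library was thus 19.0 times the highest ICR library. Its log2 fold change was 6.04 ± 0.62 (SE, n = 3 each, edgeR adjusted p = 0.0102), a 65.8-fold difference. The call held in 5 of 6 fits that left out 1 library, and ended without NOD 3 (log2 fold change 6.04, adjusted p = 0.0658).

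Ighm stood at 70.5, 325 and 165 CPM in NOD 1, 2 and 3, against 14.6, 10.4 and 11.3 CPM in ICR 1, 2 and 3. The groups did not overlap, and the ICR libraries differed by at most 1.41-fold while the NOD/Ltj libraries differed by up to 4.61-fold. Ighm rose 15.4-fold in NOD/Ltj (log2 fold change 3.95 ± 0.55 SE, n = 3 each, edgeR adjusted p = 0.016). The call ended without ICR 2, ICR 3 or NOD 3 (adjusted p = 0.0843, 0.0816 and 0.0828).

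The ratio of IgD to IgM transcripts was higher in every NOD/Ltj library than in any ICR library. For each Ighm count there were 0.532, 0.575 and 0.705 Ighd counts in NOD 1, 2 and 3, against 0.121, 0.139 and 0.174 in ICR 1, 2 and 3. The ratio averaged 0.604 ± 0.090 in NOD/Ltj and 0.145 ± 0.027 in ICR (SD, n = 3 each), and the groups did not overlap (exact permutation test, two-sided p = 0.10, the smallest that 3 against 3 allows). This ratio was chosen after the counts were seen. Secreted and membrane forms of either chain cannot be separated in gene counts.

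Igha, the dominant heavy chain gene of both strains, stood at 1378, 949 and 910 CPM in NOD 1, 2 and 3, against 192, 1136 and 380 CPM in ICR 1, 2 and 3. ICR 2 lay inside the range of NOD/Ltj, and the ICR libraries spanned 5.91-fold. The log2 fold change of 0.92 ± 0.61 did not pass (SE, n = 3 each, edgeR adjusted p = 0.609). Without ICR 2 its log2 fold change was 1.92, still without a call (adjusted p = 0.134). Leaving out ICR 1 instead gave 0.48 (edgeR adjusted p = 0.691).

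The IgG genes varied most among the ICR libraries. Their summed level was 127, 254 and 210 CPM in NOD 1, 2 and 3, against 3.11, 125 and 14.0 CPM in ICR 1, 2 and 3. The NOD/Ltj values lay within 2.00-fold of each other, while ICR 2 was 40.3 times ICR 1 and only just below NOD 1. IgG was also tested as 1 summed feature in the same fit, an alternative added after the data were seen. Its log2 fold change was 2.06 ± 1.12 (SE, n = 3 each, edgeR adjusted p = 0.518). It was 4.53 ± 0.76 without ICR 2 (adjusted p = 0.0711) and 1.48 ± 0.82 without ICR 1 (adjusted p = 0.439).

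Among the subclasses, Ighg1 stood at 50.4, 24.9 and 32.8 CPM in NOD 1, 2 and 3, against 0.968, 36.2 and 2.38 CPM in ICR 1, 2 and 3. Its groups overlapped through ICR 2, and without that library its log2 fold change was 4.43 with a call (edgeR adjusted p = 0.035; 0.577% of the 19406 genes then tested were called higher), against 1.45 with all libraries (adjusted p = 0.692). With all 6 libraries, limma-voom gave Ighg1 a log2 fold change of 3.02, again without a call (adjusted p = 0.25), so its size depends on the fit. Ighg2b stood at 40.6, 121 and 83.5 CPM in NOD 1, 2 and 3, against 1.07, 58.3 and 7.04 CPM in ICR 1, 2 and 3. It overlapped through ICR 2 as well, with a log2 fold change of 1.88 ± 1.17 (SE, n = 3 each, edgeR adjusted p = 0.58). This was 4.33 without ICR 2 (adjusted p = 0.126) and 3.33 in limma-voom (adjusted p = 0.281). Leaving out ICR 1 instead lowered Ighg2b to 1.30 (edgeR adjusted p = 0.513) and Ighg1 to 0.87 (adjusted p = 0.716).

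Ighg2c stood at 34.0, 107 and 90.2 CPM in NOD 1, 2 and 3, against 1.01, 30.0 and 4.23 CPM in ICR 1, 2 and 3. Its groups did not overlap, by a margin of 1.13-fold between NOD 1 and ICR 2, and its log2 fold change of 2.72 ± 1.09 did not pass (SE, n = 3 each, edgeR adjusted p = 0.352; 4.88 and adjusted p = 0.077 without ICR 2; 3.81 and adjusted p = 0.145 in limma-voom). Ighg3, the scarcest member, stood at 2.24, 1.59 and 3.26 CPM in NOD 1, 2 and 3, against 0.0578, 0.759 and 0.350 CPM in ICR 1, 2 and 3. These rest on 121, 128 and 215 counts in NOD/Ltj and 4, 47 and 20 in ICR. If a sequenced fragment gave 4 counts, which was assumed for limits and intervals, a count of 0 would allow up to 12 counts, and ICR 1 is under that limit. Its log2 fold change of 2.60 ± 0.79 did not pass (SE, n = 3 each, edgeR adjusted p = 0.199), and DESeq2 called it (adjusted p = 0.016). Without ICR 2 its log2 fold change was 3.55 (edgeR adjusted p = 0.147), and in limma-voom 3.18 (adjusted p = 0.152). Leaving out ICR 1 instead gave 2.06 for Ighg3 (edgeR adjusted p = 0.094) and 2.15 for Ighg2c (adjusted p = 0.273).

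Igkc was the most abundant member. It stood at 2100, 1896 and 1664 CPM in NOD 1, 2 and 3, against 198, 1619 and 548 CPM in ICR 1, 2 and 3. The groups did not overlap, but NOD 3 was only 1.03 times ICR 2, and the log2 fold change of 1.26 ± 0.68 did not pass (SE, n = 3 each, edgeR adjusted p = 0.513). Without ICR 2 it was 2.34, still without a call (adjusted p = 0.128). Leaving out ICR 1 instead gave 0.78 (edgeR adjusted p = 0.472).

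Of the lambda genes, 1 passed the test. Iglc3 stood at 10.2, 35.8 and 21.9 CPM in NOD 1, 2 and 3, against 0.953, 2.60 and 1.52 CPM in ICR 1, 2 and 3, and rose 13.4-fold in NOD/Ltj (log2 fold change 3.74 ± 0.56 SE, n = 3 each, edgeR adjusted p = 0.0189). Its call ended without ICR 3, NOD 2 or NOD 3 (adjusted p = 0.0942, 0.0751 and 0.0982) and in limma-voom (adjusted p = 0.0599). Iglc2 stood at 18.5, 71.2 and 40.5 CPM in NOD 1, 2 and 3, against 2.04, 13.1 and 4.20 CPM in ICR 1, 2 and 3. Its groups did not overlap either, and its log2 fold change of 2.75 ± 0.75 did not pass (SE, n = 3 each, edgeR adjusted p = 0.142), while DESeq2 called it (adjusted p = 0.000737). Without ICR 2 the log2 fold change of Iglc2 was 3.80 (edgeR adjusted p = 0.0827), and without ICR 1 it was 2.31 (adjusted p = 0.15). Since Iglc2 and Iglc3 are nearly identical, they were also summed after the data were seen. The sum had a log2 fold change of 3.02 ± 0.70 (SE, n = 3 each, edgeR adjusted p = 0.0899). It was 3.92 without ICR 2 (adjusted p = 0.0711) and 2.61 without ICR 1 (adjusted p = 0.101).

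**Figure D2:**
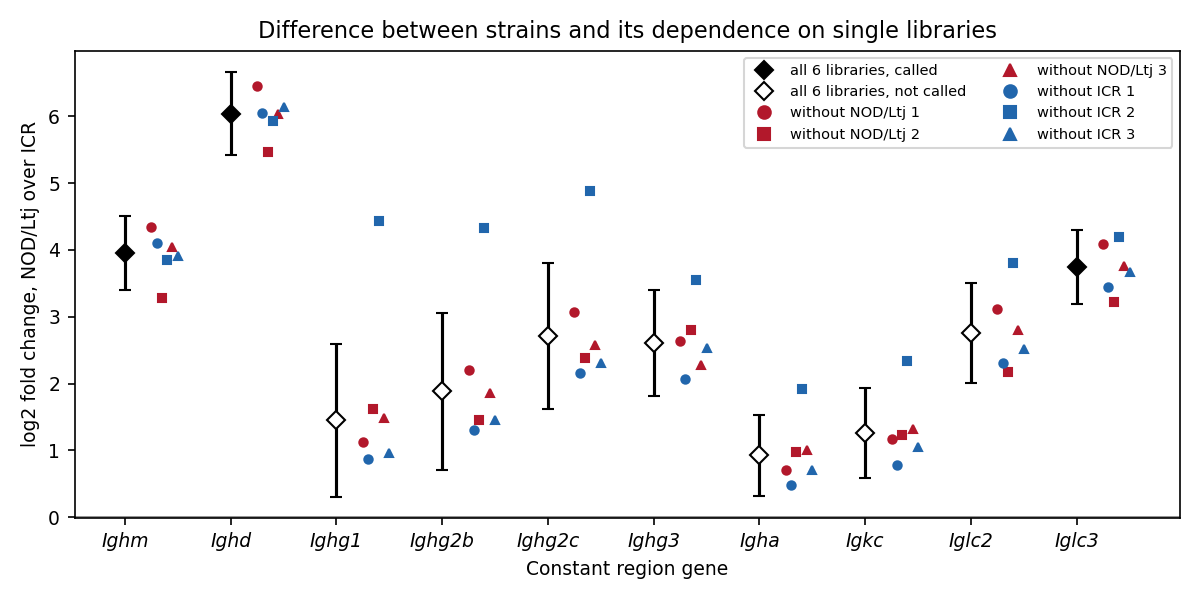
Log2 fold change of NOD/Ltj over ICR for each gene, with diamonds for all 6 libraries (bars are standard errors, filled where called) and small symbols for fits without 1 library. Leaving out ICR 2 raises Ighg1 to 4.43 and Igha to 1.92, and leaving out ICR 1 lowers them to 0.87 and 0.48. Ighd lies between 5.47 and 6.46 in the 6 reduced fits.

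IgA made up most of the heavy chain counts in every library, and less of them in NOD/Ltj. IgA held 85.4, 55.3 and 65.0% of the counts of the 7 heavy chain genes in NOD 1, 2 and 3, against 90.8, 89.2 and 93.3% in ICR 1, 2 and 3. Its share averaged 68.6% ± 15.4 in NOD/Ltj and 91.1% ± 2.05 in ICR (SD, n = 3 each), with no overlap between the groups (exact permutation test, two-sided p = 0.10). The 95% Wilson intervals of these shares, computed on counts divided by 4, reached at most 0.937 percentage points to either side and cover counting error only.

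IgD held 2.33, 10.9 and 8.30% of the heavy chain counts in NOD 1, 2 and 3, against 0.833, 0.113 and 0.485% in ICR 1, 2 and 3, again without overlap (exact permutation test, two-sided p = 0.10). IgM held 4.37, 19.0 and 11.8% in NOD 1, 2 and 3, against 6.91, 0.814 and 2.78% in ICR 1, 2 and 3. Here ICR 1 lay above NOD 1, so the groups overlapped (exact permutation test, two-sided p = 0.20). IgG held 7.88, 14.8 and 15.0% in NOD 1, 2 and 3, against 1.47, 9.83 and 3.44% in ICR 1, 2 and 3, and overlapped through ICR 2 (exact permutation test, two-sided p = 0.20).

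Within IgG, Ighg2b held the largest average share of counts in both strains, with 39.7% ± 7.80 in NOD/Ltj and 43.8% ± 8.31 in ICR (SD, n = 3 each). Ighg1 held more in NOD 1 and Ighg2c in NOD 3. Counts are not scaled for length. Per kilobase of annotated exon Ighg2c stood above Ighg2b in every library, most narrowly in ICR 2 (22.6 against 21.8 CPM per kilobase). Per kilobase of the shortest transcript Ighg2b averaged higher in both strains, so their order depends on the annotated length. Ighg2c held 37.3% ± 9.14 in NOD/Ltj and 28.9% ± 4.45 in ICR, Ighg1 21.7% ± 15.8 and 25.7% ± 7.62, and Ighg3 1.31% ± 0.60 and 1.66% ± 0.96 (SD, n = 3 each, NOD/Ltj before ICR). All 4 shares overlapped between the strains (exact permutation tests, two-sided p from 0.30 to 0.80). NOD 1 differed from the other NOD/Ltj libraries in Ighg1, which held 39.6% of its IgG counts against 9.80 and 15.6% in NOD 2 and NOD 3. In ICR 1 these shares rest on few reads, with Wilson intervals of up to 12.2 percentage points to either side.

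Kappa held 98.7, 94.7 and 96.4% of the counts of the 3 light chain genes in NOD 1, 2 and 3, against 98.5, 99.0 and 99.0% in ICR 1, 2 and 3. NOD 1 lay among the ICR libraries, and the groups overlapped (exact permutation test, two-sided p = 0.20). Iglc1, a further lambda gene, is not in this sum, so the kappa shares hold for the 3 listed genes only. Iglc1 had 1.81, 0.374 and 0.542 counts per Iglc2 count in NOD 1, 2 and 3, against 1.64, 2.82 and 0.446 in ICR 1, 2 and 3. Of the light chain counts, Iglc3 took 0.479, 1.79 and 1.27% in NOD 1, 2 and 3, against 0.475, 0.159 and 0.274% in ICR 1, 2 and 3, where NOD 1 was just above ICR 1. The 41 shares, sums and ratios tested this way include each sum and ratio both as it is and on the log2 scale. Over them the smallest p adjusted by the Benjamini-Hochberg method was 0.205. None could pass, since an exact permutation test of 3 against 3 gives no p under 0.10.

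**Figure D3:**
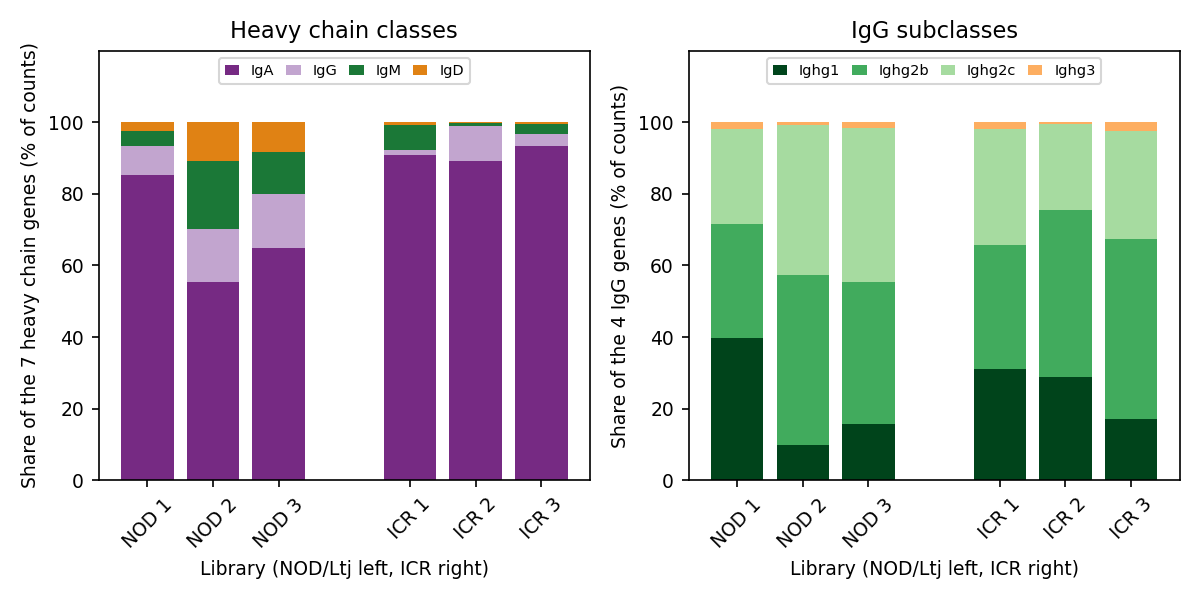
Share of each class in the counts of the 7 heavy chain genes (left panel, %) and of each subclass in the counts of the 4 IgG genes (right panel, %), 1 bar per library with NOD/Ltj on the left. IgA fills 55.3 to 85.4% of the NOD/Ltj bars and 89.2 to 93.3% of the ICR bars, and the order of the IgG subclasses differs between libraries of 1 strain.

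Ratios of light to heavy chain transcripts overlapped between the strains. For each heavy chain count there were 1.32, 1.17 and 1.23 light chain counts in NOD 1, 2 and 3, against 0.949, 1.28 and 1.36 in ICR 1, 2 and 3 (exact permutation test, two-sided p = 0.90). The log2 difference of this ratio was 0.06 with all libraries, −0.09 without ICR 1 and 0.16 without ICR 3, so it has no settled direction. The 7 heavy chain genes together stood at 1613, 1716 and 1401 CPM in NOD/Ltj, against 211, 1273 and 407 CPM in ICR. Without Igha, the remaining 6 stood at 235, 767 and 491 CPM in NOD/Ltj, against 19.5, 137 and 27.3 CPM in ICR.

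Per kilobase of annotated exon, the levels can be set in order across genes. In NOD/Ltj they ran from Igkc (3547 ± 410 CPM per kilobase) and Igha (404 ± 97.3) through Ighm (99.1 ± 68.3), Iglc2 (70.9 ± 43.3), Ighd (59.8 ± 39.4) and Ighg2c (58.1 ± 28.8) to Iglc3 (50.1 ± 28.4), Ighg2b (30.5 ± 15.0), Ighg1 (13.9 ± 5.03) and Ighg3 (0.941 ± 0.334, SD, n = 3 each). Neighbours from Ighm down to Ighg1 overlapped, while Igkc, Igha and Ighg3 stood clear of their neighbours. In ICR, Igkc (1482 ± 1392) and Igha (213 ± 187 CPM per kilobase, SD, n = 3 each) overlapped each other and came first as well. Ighd averaged 0.908 ± 0.142 CPM per kilobase in ICR (SD, n = 3). The order below Igha differed between ICR libraries: Ighd (0.928) was above Ighg1 (0.373), Ighg2b (0.399) and Ighg2c (0.763 CPM per kilobase) in ICR 1 and above Ighg1 in ICR 3, and below all 3 in ICR 2. These levels depend on the annotated length, and per kilobase of the shortest annotated transcript Ighd (142 ± 93.4) came before Ighm (125 ± 86.3 CPM per kilobase, SD, n = 3 each) in NOD/Ltj, still with overlap.

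Constant region genes outside the 10 showed no call. Iglc1, a lambda constant region, stood at 33.5, 26.7 and 22.0 CPM in NOD 1, 2 and 3, against 3.34, 36.9 and 1.87 CPM in ICR 1, 2 and 3 (edgeR adjusted p = 0.775), and without ICR 2 it was called (log2 fold change 3.39, adjusted p = 0.024). Over the fits without 1 library the log2 fold change of Iglc1 ran from 0.44 to 3.39. Ighe, the constant region of IgE, had 45, 39 and 38 counts in NOD 1, 2 and 3, against 0, 15 and 8 in ICR 1, 2 and 3 (edgeR adjusted p = 0.423). Of the surrogate light chain genes of B cell precursors, Igll1, Vpreb1 and Vpreb2 were at 0 in at least 5 of 6 libraries. Vpreb3 had 21, 78 and 66 counts in NOD 1, 2 and 3, against 19, 22 and 23 in ICR 1, 2 and 3. It did not pass (edgeR adjusted p = 0.42).

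Other genes of antibody production were read from lists. Of 12 B cell genes, 11 rose in NOD/Ltj and 1 was not called, with a median log2 fold change of 5.84, and their summed level was 152, 632 and 433 CPM in NOD 1, 2 and 3, against 7.04, 9.42 and 10.4 CPM in ICR 1, 2 and 3. Cd79a, the signalling partner of membrane antibody, rose 36.6-fold (edgeR adjusted p = 0.013). Among the largest increases were those of Fcer2a, the low-affinity IgE receptor (log2 fold change 7.75), Ms4a1, which encodes CD20 (6.71), and Pax5, the B cell transcription factor (6.37). Fcer2a rests on 3, 5 and 11 counts in ICR 1, 2 and 3, all under the 12 that a count of 0 allows. Ms4a1 rests on 6, 30 and 20 counts there, with ICR 1 under that limit, and Pax5 on 15, 21 and 14, all above it. Without NOD 3 none of the 12 was called, 6 were without NOD 2, 6 without ICR 2 and 7 without ICR 3, and limma-voom called 3. Cd79b, the 1 gene not called, was at 0 in ICR 1.

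Of 16 genes of plasma cells and antibody secretion, 1 rose and 15 were not called, with a median log2 fold change of 0.07. The gene that rose was Slamf7, a surface receptor of plasma cells and other leukocytes (log2 fold change 2.47 ± 0.34 SE, n = 3 each, edgeR adjusted p = 0.016), and its call ended in 4 of the 6 fits without 1 library. Jchain, the J chain of polymeric IgA and IgM, stood at 517, 455 and 395 CPM in NOD 1, 2 and 3, against 126, 500 and 104 CPM in ICR 1, 2 and 3 (edgeR adjusted p = 0.60; 1.99 on the log2 scale and adjusted p = 0.0472 without ICR 2). Over the fits without 1 library the log2 fold change of Jchain ran from 0.54 to 1.99. Mzb1, a chaperone of antibody assembly, stood at 5.56, 9.09 and 7.74 CPM in NOD 1, 2 and 3, against 0.491, 7.45 and 1.99 CPM in ICR 1, 2 and 3 (edgeR adjusted p = 0.626). In both genes ICR 2 lay inside the range of NOD/Ltj, as in Igha, whereas in Igkc it lay just below that range.

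**Figure D4:**
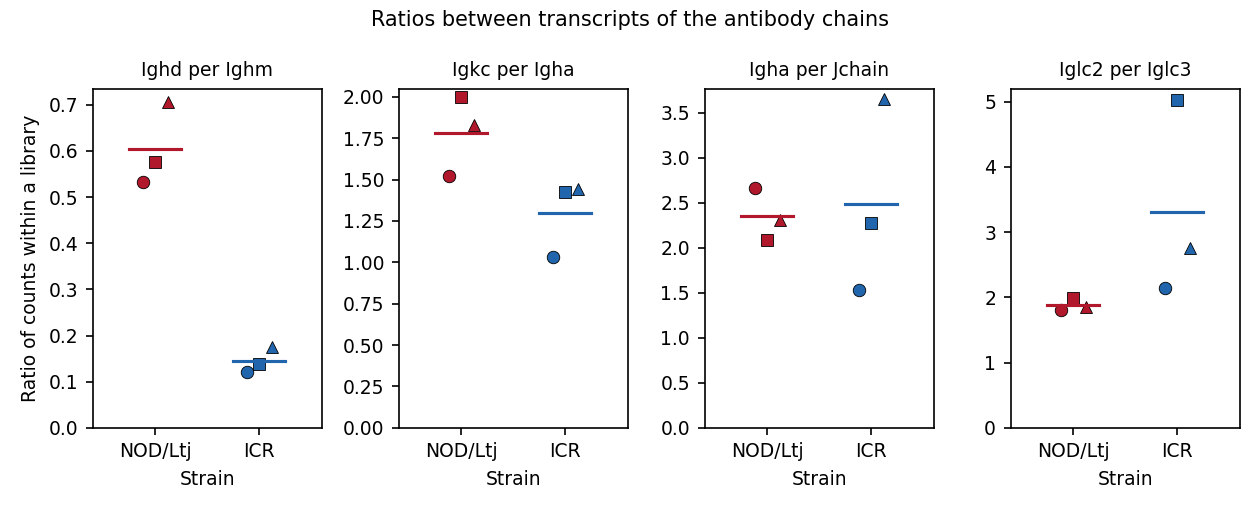
Ratios of counts within each library for 4 pairs of genes, with NOD/Ltj in red on the left and ICR in blue on the right and bars for group means. Ighd per Ighm lies between 0.532 and 0.705 in NOD/Ltj and between 0.121 and 0.174 in ICR, whereas Igha per Jchain overlaps.

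Counts of Igha per Jchain count were 2.66, 2.09 and 2.30 in NOD 1, 2 and 3, against 1.53, 2.27 and 3.66 in ICR 1, 2 and 3, which overlapped (exact permutation test, two-sided p = 0.90). Counts of Igkc per Igha count were 1.52, 2.00 and 1.83 in NOD/Ltj, against 1.03, 1.43 and 1.44 in ICR, without overlap. Counts of Iglc2 per Iglc3 count were 1.81, 1.99 and 1.85 in NOD/Ltj, against 2.14, 5.03 and 2.76 in ICR, also without overlap (exact permutation tests, two-sided p = 0.10 for both). These ratios were chosen after the counts were seen.

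Class switch recombination is the cut and rejoining of the heavy chain locus. Of 21 tested genes of its machinery, edgeR called 0 in either direction and DESeq2 called 0 higher. In edgeR 3 of the 21 had an unadjusted p under 0.05, a share similar to the 2420 of all 18537 genes tested. Ung, a uracil glycosylase, stood at 1.02, 1.08 and 1.30 CPM in NOD 1, 2 and 3, against 2.04, 2.67 and 4.51 CPM in ICR 1, 2 and 3 (edgeR adjusted p = 0.133), and DESeq2 called it lower (log2 fold change −1.44, adjusted p = 0.0172). Of 18 tested switch cytokines, receptors and transcription factors, 3 rose: the co-stimulator Cd40 (log2 fold change 3.96), Il21r, the receptor of interleukin 21 (3.63), and Il4ra, the receptor chain of interleukin 4 and interleukin 13 (1.35). All 3 calls ended in each of the fits without ICR 2, ICR 3, NOD 2 or NOD 3, and limma-voom made none of them.

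Among 10 tested receptors and transporters of antibodies, edgeR called 1 higher, Fcmr, the IgM receptor of B cells (log2 fold change 5.77 ± 0.67 SE, n = 3 each, edgeR adjusted p = 0.0108; 0.068 without NOD 3 and 0.15 in limma-voom). DESeq2 called 3 of the list higher (4.84% of all genes tested), and so did edgeR on counts divided by 4. Fcmr rests on 9, 8 and 16 counts in ICR 1, 2 and 3, of which only ICR 3 exceeds the 12 that a count of 0 allows. Pigr, the polymeric immunoglobulin receptor, stood at 118, 99.8 and 66.3 CPM in NOD 1, 2 and 3, against 143, 47.1 and 50.0 CPM in ICR 1, 2 and 3 (log2 fold change 0.24, edgeR adjusted p = 0.899; −0.03 without ICR 2 and −0.01 without ICR 3). Fcgrt, the neonatal Fc receptor that recycles IgG, stood at 4.50, 6.95 and 4.98 CPM in NOD 1, 2 and 3, against 21.5, 3.60 and 4.65 CPM in ICR 1, 2 and 3 (log2 fold change −0.86, edgeR adjusted p = 0.677; 0.40 without ICR 1).

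Markers of other cells in the gland were read in the same way. Of 8 T cell markers, 4 rose, namely Cd3g, Cd3e, Lck and Cd2, and their list summed to 32.9, 89.8 and 72.5 CPM in NOD 1, 2 and 3, against 3.05, 3.25 and 3.92 CPM in ICR 1, 2 and 3. Cd4 and Cd3d were at 0 in ICR 1 and Trac in ICR 2. The fits without NOD 3 and with limma-voom called 0 of the 8, the fit without ICR 3 called 2 and DESeq2 called 8, and the part of these cells in the antibody values was not tested. Of 8 macrophage and dendritic cell markers 0 were called by edgeR and DESeq2 called 2 higher. An unadjusted edgeR p under 0.05 was found for 3 of the 8, against 2420 of all 18537 genes tested. Within NOD/Ltj, NOD 2 held the most and NOD 1 the least of the B cell genes, the T cell genes, Ighm, Ighd, Iglc2 and Iglc3. NOD 1 held the most Igha and Igkc.

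The genes whose pattern over the 6 libraries was most like each class were found by the root mean square distance of centred log2(CPM + 0.5) values among 13896 genes that are not immunoglobulin genes. For Ighm they were Traf3ip3 (0.142 log2 units), Col6a4 (0.195), Fcmr (0.21), Cd37 (0.213) and Ikzf3 (0.229). The added 0.5 narrows differences of genes at low levels. Col6a4 (0.27, 0.21 and 0.28 CPM) and Fcmr (0.13, 0.13 and 0.28 CPM) lay under it in ICR 1, 2 and 3. The log2 fold changes of the 5 genes, in the order named, were 4.60, 5.60, 5.77, 4.25 and 4.82, against 3.95 for Ighm. The pattern of Igha was nearest to Jchain (0.377), followed by Gm28445, Gm49492, Gm30648 and Gm12887 (0.406 to 0.418). Nearest to Igkc was Mzb1 (0.288), then Zkscan7 (0.362), Gm30648 (0.469), AC134471.3 (0.478) and Cd46 (0.487). The summed IgG genes had no gene so close, with Rpl26 at 0.713, Pou2af1 at 1.03, Lax1 at 1.05, A530030E21Rik at 1.08 and Mzb1 at 1.10 log2 units.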

How the data were processed

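Lacrimal gland RNA of 3 NOD/Ltj and 3 ICR samples was analysed. The table the authors deposited holds estimated counts for each gene as whole numbers, and library totals differ. Per the submitters' processing notes, fastp, StringTie and edgeR were used; the sources used here do not give the aligner, genome build or strand setting. Per the labels' protocols, second strands were marked with dUTP and removed, and paired reads had 150 bases. Of the values from 1 to 40, 30.4 to 31.7% were multiples of 4, where 25% would be without steps. This small excess does not fix the number of counts per fragment, and 4 was assumed for the Wilson intervals and for the limit at a count of 0 (3 fragments, 12 counts). Symbols from GENCODE M21 matched 55141 of 55401 identifiers, and transcript sequences came from the same release.

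The strains were compared in R 4.3.3 with edgeR 4.0.16 (quasi-likelihood, TMM, filterByExpr, two-sided, Benjamini-Hochberg over 18537 genes, called under 0.05). DESeq2 1.42.0 and limma-voom (limma 3.58.1) were alternatives. Standard errors are the absolute log2 fold change over the square root of F. On simulated counts of 18272 genes, edgeR recovered 63.0% of changes of 2 log2 units and 100% of changes of 3. The simulation gave every gene the same biological coefficient of variation, 0.42. Ighg1, Ighg2b and Ighg2c spanned 29.6 to 54.5-fold among the ICR libraries, so these recoveries do not carry over to such genes. Shares and ratios were compared by exact permutation tests. Pairs of libraries differed by chi-square values of at least 34.9 per degree of freedom on counts divided by 4, so no library copies another. Each counted as 1 sample, though these values do not show that samples came from separate animals.

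The members and lists were chosen with earlier results of these data known. Named genes were the 10 members, up to 4 called genes with the largest change per list (or the lowest p), genes always named (Jchain, Mzb1, Pigr, Fcgrt, Cd79a, Ms4a1, Ighe and Iglc1) and the 5 nearest patterns of Ighm, the IgG sum, Igha and Igkc (mean of at least 1 CPM). In lists with no call the gene with the lowest p was named; in the gland, salivary and macrophage lists these were Aqp5 (edgeR adjusted p = 0.487), Bpifa2 (0.57) and Itgax (0.0985). Some genes that the rule names are not reported here.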

Additional observations from a re-analysis of the deposited data

How the results depend on the processing

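All 10 members kept positive fold changes in every fit run. The number of members called higher was 3 with all libraries, 5 with DESeq2, 2 with limma-voom, and 0 to 3 with 1 library left out (0 without NOD 3, 1 without ICR 3, 2 without NOD 2); none was called lower. Equal counts did not always hold the same genes. Without ICR 2 the 3 called were Ighd, Ighg1 and Iglc3, and with replicate blocks they were Ighd, Iglc2 (2.96 log2 units, adjusted p = 0.0206) and Iglc3, while Ighm (adjusted p = 0.0871) and Slamf7 (adjusted p = 0.102) were not called. Of all genes, 416 were called with all libraries, 1183 with DESeq2, 143 with limma-voom, 154 with replicate blocks and 13 to 524 without 1 library. The replicate numbers pair no samples by the labels, and deviations of same-numbered samples correlated at −0.16, −0.18 and 0.12 across 15233 genes. Scaling by DESeq2 size factors, other filters, division of counts by 4 and library sizes without the 20 most abundant genes left 3 members called. The IgA share differed by −31.0 to −15.9 percentage points (−22.5 with all libraries), the kappa share by −3.32 to −1.32 (−2.27) and the IgG share by 5.92 to 10.1 (7.64). Per kilobase of exon the IgA share differed by −26.9 points. Shares of IgM, IgD and the IgG subclasses moved by less than their spread in every alternative run, although the Ighg1 share of IgG turned to 1.94 points without NOD 2 (−4.00 with all libraries) and the Ighg3 share to 0.0803 without ICR 3 (−0.341). Without 1 library, Pigr ran from −0.029 (without ICR 2) through −0.0076 (without ICR 3) to 0.95 log2 units, against 0.24 with all libraries, and Fcgrt from −1.26 to 0.40 (without ICR 1), against −0.86. Depth limits Ighg3 and Ighe, which have few counts in ICR.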
